A study of Mus musculus with 6 samples.

Results

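Proteasome genes of the mouse were described in nuclear RNA of atrial cardiomyocytes, in animals carrying the Prrx1(R1A)-/- genotype and in control animals. Members were taken by name: every gene of the deposited expression table whose symbol starts with Psm, a letter from a to g and a number. This gave 49 of the 26332 genes with values. Of these, 48 are named as proteasome subunits, activators, an inhibitor or assembly factors, and 1, Psmc3ip, is a protein that interacts with Psmc3 and matches by its letters only, so it was left out of every class count. The core particle (Psma, Psmb) had 19 members, the regulatory cap (Psmc, Psmd) had 21 with Psmc3ip counted, and the activators, inhibitor and assembly factors (Psme, Psmf, Psmg) had 9. In all, 46 members reached at least 10 normalized counts in at least 3 libraries and were tested; Psma8, Psmb11 and Psmd10 did not.

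The 6 libraries came from 3 Prrx1(R1A)-/- mice and 3 control mice (columns headed wt) aged 8 to 12 weeks, 1 library per animal. Left and right atria of an animal were pooled, and nuclei were sorted by flow cytometry for PCM1, a protein found around cardiomyocyte nuclei, so any difference between the 2 atria is averaged. The labels name the allele R1A without describing it; from the series title, the study is about noncoding sequence that controls Prrx1, which encodes a homeobox transcription factor. The molecule sequenced was nuclear RNA, which holds unspliced transcripts and RNA not yet exported; a level here is therefore not the level in the whole cell, and nothing here measures protein or proteasome activity.

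The proteasome is the barrel-shaped protease that degrades proteins tagged with ubiquitin. Its core particle is built of stacked rings: outer rings of alpha subunits (Psma) gate the entrance, and inner rings of beta subunits (Psmb) carry the cutting sites. The regulatory cap binds the tagged protein, removes the ubiquitin and unfolds the chain with a ring of ATPases (Psmc) assisted by non-ATPase subunits (Psmd). In immune cells, and in other cells exposed to interferon, the catalytic subunits Psmb5, Psmb6 and Psmb7 can be replaced by Psmb8, Psmb9 and Psmb10, which makes the immunoproteasome and favours peptides for display by MHC class I. In heart muscle the proteasome is known for turning over sarcomere and damaged proteins.

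The libraries held 10580961 to 14658584 reads. Ribosomal RNA made up 26.7, 28.9 and 39.8% of reads in Prrx1(R1A)-/- libraries, and 46.5, 12.0 and 17.9% in controls 1, 2 and 3. Proteasome members took 6544 to 7480 reads in Prrx1(R1A)-/- libraries and 5916 to 13052 reads in control libraries, and a tested member had 4 to 2267 reads in a library; 3 reads corresponded to 2.22 to 3.77 normalized counts. Control replicate 1 stood apart from the rest, with a correlation of 0.890 to 0.908 with the other 5 libraries and 46.5% ribosomal reads. It also had the fewest reads without ribosomal RNA, 6465255, and the fewest member reads. Members took 0.0915% of its reads without ribosomal RNA. That share was 0.0769 to 0.0848% in Prrx1(R1A)-/- libraries, and 0.139 and 0.133% in controls 2 and 3. Many results are also given without control replicate 1, and a value given once may change without it. The targeted gene Prrx1 had 201, 194 and 183 normalized counts in Prrx1(R1A)-/- libraries, against 415, 335 and 282 in control libraries. Its log2 fold change was -0.82 ± 0.25 (SE, adjusted p = 0.270 by limma), and -0.67 without control replicate 1. Summed over lists of marker genes, cardiomyocyte markers were at 800457 to 1500968 normalized counts in Prrx1(R1A)-/- libraries against 299197 to 573032 in controls, fibroblast markers at 16128 to 16892 against 22821 to 35484, and immune markers at 5589 to 6170 against 6384 to 11122. All 8 cardiomyocyte markers tested had a fold change above 0, and all 7 fibroblast and all 12 immune markers one below 0 (7 of 8 above 0, and 7 of 7 and 11 of 12 below 0, without control replicate 1); these marker levels moved with genotype, and their part in the results below was not tested. Exons of 12 members overlap exons of an opposite-strand gene, and the cDNA kit named in the labels does not mark strand, so reads of such pairs cannot be told apart. In pooled nuclei, fewer nuclei of a type and less RNA per nucleus cannot be told apart.

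No proteasome gene differed between Prrx1(R1A)-/- and control nuclei past the threshold. Fold changes were fitted with limma on log2(normalized count + 1) across all 14584 genes tested, with Benjamini-Hochberg adjustment over all of them and a threshold of 0.05; they are on that scale, which understates the change of low genes. Of the 46 members tested, 0 were called, with adjusted p between 0.259 and 0.993 by limma. It called 0% of all genes lower and 0.0137% higher. On simulated counts limma recovered 15.2% of 2-fold and 79.6% of 4-fold changes, so 0 calls does not show that members were unchanged. The tools edgeR and DESeq2, run on recovered reads, also called 0 members, where edgeR called 0% of all genes in either direction and DESeq2 called 0.569% lower and 1.1% higher. At an unadjusted p under 0.05, 6 of the 45 members without Psmc3ip were lower in Prrx1(R1A)-/- nuclei, which is 13.3%, against 5.25% of all genes tested, and 0 were higher, against 6.67%. The 6 were Psmb10, Psma6, Psmb9, Psmb8, Psma1 and Psme2: the 3 immunoproteasome catalytic subunits, 2 alpha subunits and 1 activator subunit.

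Fold changes of 36 of the 45 members lay below 0 and of 9 above, with a median of -0.28, against 50.3% of all genes below 0 and a median of -0.00. All 3 Prrx1(R1A)-/- libraries lay below all 3 controls for 6 of 45 members (Psma3, Psma6, Psmb1, Psmb10, Psmd5 and Psme2), while 8.36% of all genes were separated in this way, and above all 3 controls for 1 (Psmc4), against 8.89% of all genes. Classes differed in their medians. The 14 constitutive core genes had a median of -0.55, the 3 immunoproteasome subunits -1.03, the 6 ATPases -0.07, the 13 non-ATPase cap subunits -0.10, the 4 activators -0.01 and the 4 assembly factors -0.43. The 13, taken by name, include Psmd5 and Psmd9, which are also described as assembly factors of the cap. Without control replicate 1, the median of all 45 was -0.54, of the constitutive core -0.75, of the immunoproteasome subunits -0.78, of the ATPases -0.15, of the non-ATPase cap subunits -0.30, of the activators -0.30 and of the assembly factors -0.59. The activator median turned above 0, at most 0.18, when another library was left out. These medians describe the lists and were not tested.

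**Figure D1:**
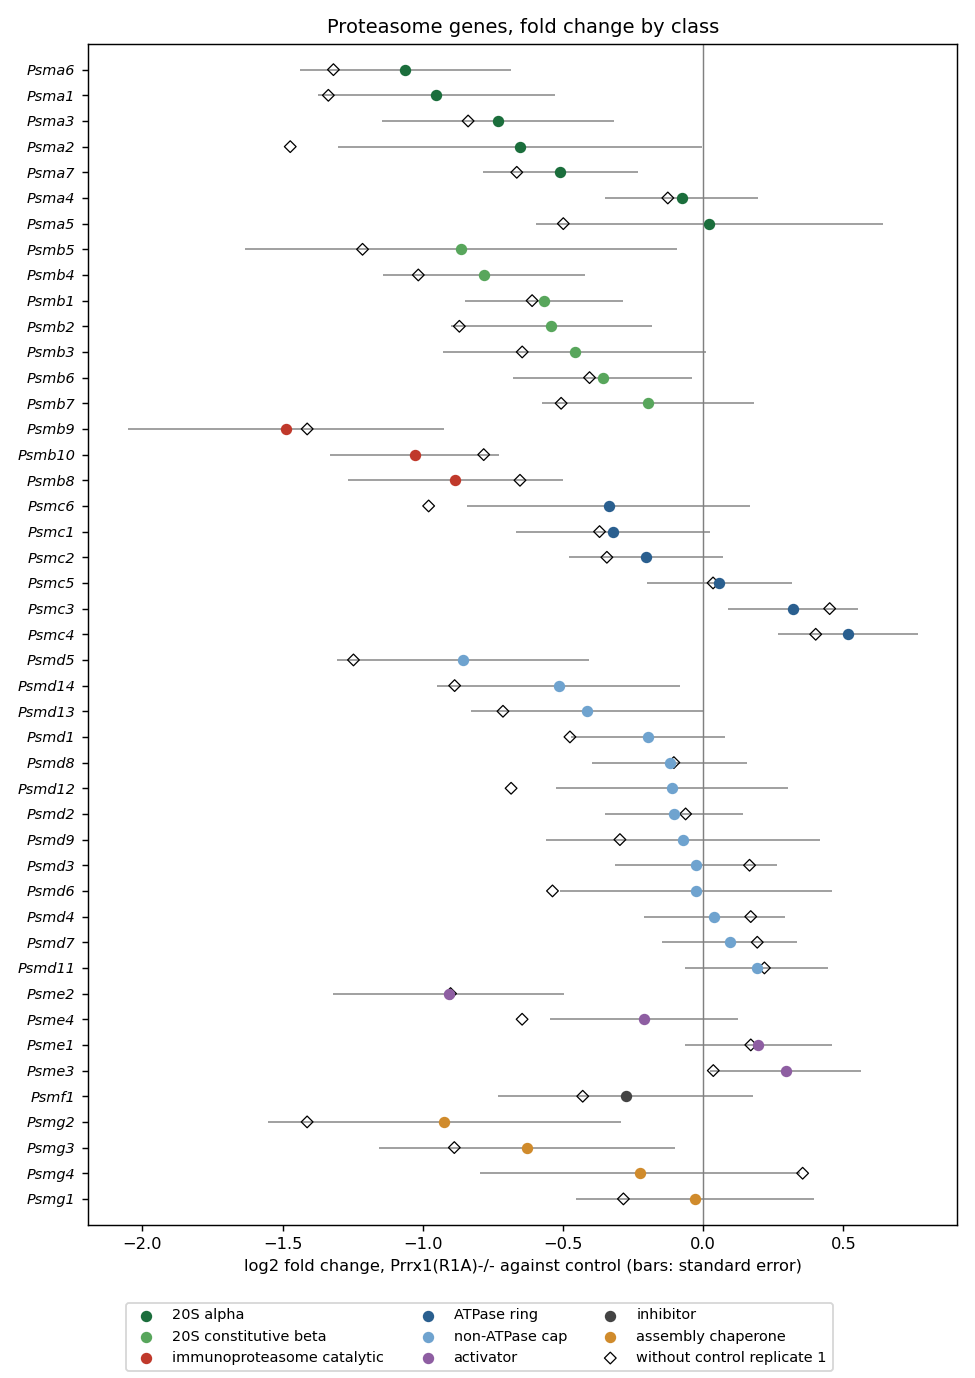
Log2 fold change of the 45 tested proteasome genes, Prrx1(R1A)-/- against control, by class (filled circles, with bars of 1 standard error from limma, n = 3 each), and the same without control replicate 1 (open diamonds). Core genes lie mostly left of 0, ATPases on both sides, and most diamonds of the constitutive core lie further left than the circles.

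The outer ring of the core particle had 7 tested genes, 6 with a fold change below 0. The other, Psma5, was at 0.02 ± 0.62 (-0.50 without control replicate 1). The class median was -0.65 (-0.84 without control replicate 1). Psma6 (chromosome 12, GRCm38, 55384222 to 55418454, plus strand) had 51.0, 81.6 and 106 normalized counts in Prrx1(R1A)-/- libraries, against 112, 209.7 and 175 in control libraries. The groups did not overlap, although the highest Prrx1(R1A)-/- library and the lowest control, replicate 1, were close. Its means were 79.6 ± 27.6 in Prrx1(R1A)-/- and 166 ± 49.5 in control nuclei (SD, n = 3 each; log2 fold change -1.06 ± 0.38, SE, unadjusted p = 0.0158, adjusted p = 0.317 by limma). Psma1 (chromosome 7, 114264606 to 114276118, minus strand) had 40.2, 51.6 and 59.6 normalized counts in Prrx1(R1A)-/- libraries, against 56.6, 112 and 145 in controls. Here control replicate 1 fell inside the range of the Prrx1(R1A)-/- libraries, and the fold change was -0.95 ± 0.42 (adjusted p = 0.406 by limma). Without control replicate 1, Psma6 was at -1.32 with an adjusted p of 0.0378 and Psma1 at -1.34 with an adjusted p of 0.0421 by limma, the only 2 members called in that fit. Over all alternatives the adjusted p ran from 0.0196 to 0.697 for Psma6 and from 0.0234 to 0.765 for Psma1. In the fit without control replicate 1, 3.06% of all genes were called lower and 6.1% higher.

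The inner ring had 7 constitutive genes tested, 7 of 7 with a fold change below 0, and a median of -0.54 (-0.65 without control replicate 1). Of the 3 that carry the cutting sites, Psmb6, the caspase-like site, had 187, 134 and 91.0 normalized counts in Prrx1(R1A)-/- libraries, against 159, 176 and 174 in controls. Psmb7, the trypsin-like site, had 71.7, 82.8 and 69.7 in Prrx1(R1A)-/- libraries, against 55.4, 92.9 and 122 in controls. For both genes the groups overlapped, with log2 fold changes of -0.36 ± 0.32 for Psmb6 (adjusted p = 0.681 by limma) and -0.20 ± 0.38 for Psmb7 (adjusted p = 0.870 by limma); without control replicate 1 they were -0.41 and -0.51. Exons of Psmb7 share 405 bases with Nek6 on the opposite strand. Psmb5, the chymotrypsin-like site, had 27.1, 8.40 and 4.04 normalized counts in Prrx1(R1A)-/- libraries, against 11.3, 23.2 and 26.0 in controls. These are 4 to 35 reads a library, too few to show a difference of the size fitted (-0.86 ± 0.77, adjusted p = 0.681 by limma). Without control replicate 1 the fold change of Psmb5 was -1.21. The annotation also holds pseudogenes named after Psmb5, Psmb6 and Psmb7, and how the counting treated reads shared with them is not given in the sources used here, so a low value of these genes cannot be read as low expression. Psmb4, a structural subunit named here after its values were seen, was called with libraries weighted by quality (adjusted p = 0.0358 by limma), a fit that also called Psma1 and Psma6, all 3 lower, while it called 3.92% of all genes lower and 6.51% higher. Unweighted, Psmb4 was at -0.78 ± 0.36 (adjusted p = 0.425 by limma), and at -1.02 without control replicate 1. Over all alternatives its adjusted p ran up to 0.778.

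The core genes shared a pattern among libraries. Control replicate 1 was the lowest control for 14 of 14 constitutive core genes, against 42.1% of all genes tested, and lay inside the range of the Prrx1(R1A)-/- libraries for 8 of the 14, against 38.7% of all genes. Controls 2 and 3 were the higher libraries: all 3 Prrx1(R1A)-/- libraries lay below both of them for 9 of the 14 core genes and for 21 of 45 members, against 21.3% of all genes, and above both of them for 2 members, Psmc3 and Psmc4, against 22.0%. Without control replicate 1, 15 of 45 members were lower at an unadjusted p under 0.05, against 11.2% of all genes. With quality weights, which gave control replicate 1 the lowest weight, 0.246, 18 members were lower at that threshold, against 13% of all genes. The core values of Prrx1(R1A)-/- nuclei therefore differed from controls 2 and 3 more than from control 1. Controls 2 and 3 also had the lowest ribosomal shares, 12.0 and 17.9%. The share was 26.7 to 39.8% in Prrx1(R1A)-/- libraries and 46.5% in control 1. With control 1 left out, ribosomal share and genotype therefore cannot be told apart, and the part of that share was not tested.

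**Figure D2:**
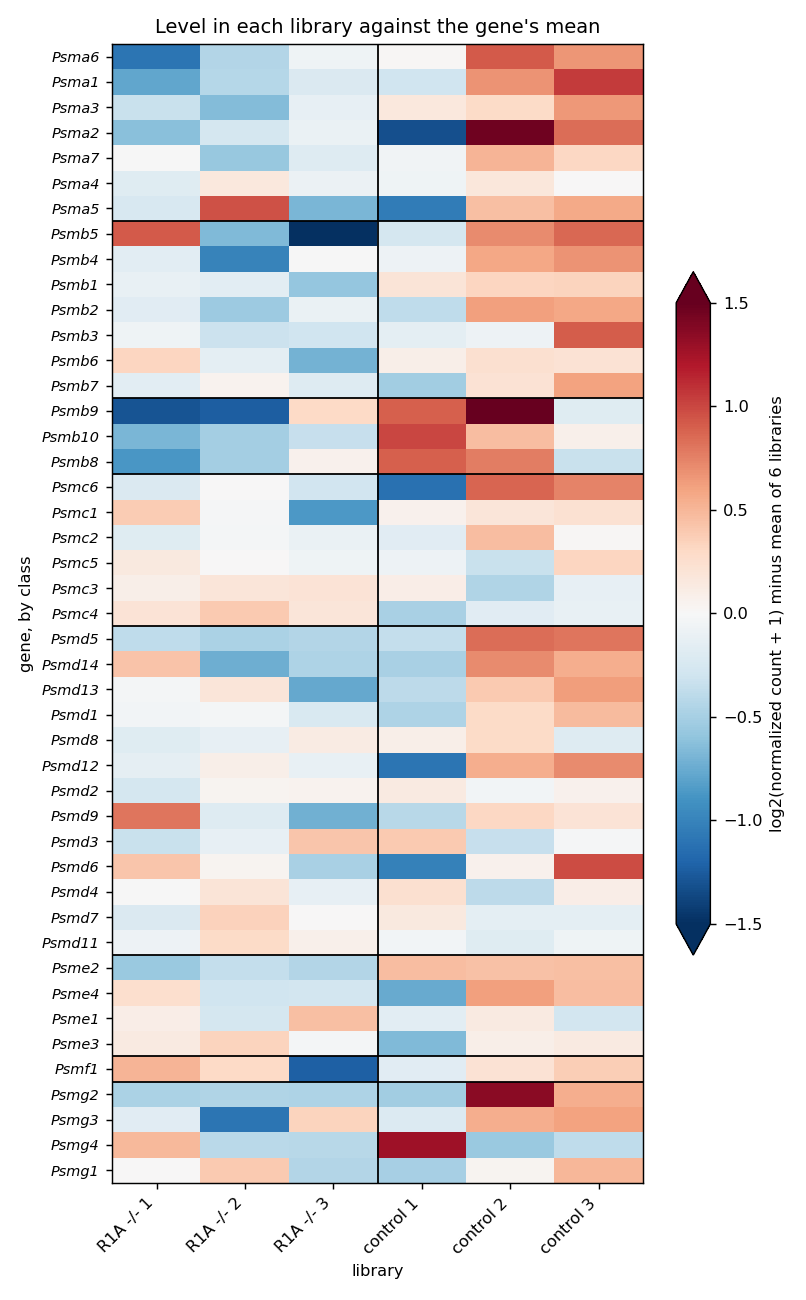
Deviation of each tested proteasome gene in each library from that gene's mean over the 6 libraries, on the log2(normalized count + 1) scale, with the 3 Prrx1(R1A)-/- libraries left of the 3 controls and genes grouped by class. Controls 2 and 3 are above the mean for most core genes, while control 1 is mostly near or below it.

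The core and the cap did not move alike across libraries. Summed normalized counts of the 14 constitutive core genes were 1206, 1103 and 1124 in Prrx1(R1A)-/- libraries, against 1244, 1890.4 and 1886 in controls. Summed counts of the 19 cap genes were 4044, 4355 and 3999 in Prrx1(R1A)-/- libraries, against 3855, 4174 and 4669 in controls. The cap sums overlapped between groups; every core sum of Prrx1(R1A)-/- nuclei was below every control, by a narrow margin against control 1. Core counts per cap count were 0.298, 0.253 and 0.281 in Prrx1(R1A)-/- libraries, against 0.323, 0.453 and 0.404 in controls. These sums weight abundant and long transcripts most, and with 3 libraries a side a two-sided exact permutation test cannot go below p = 0.1, so the ratio was given no test. The members were also unequal in level: across the 45 tested members the log2 fold change had a Spearman correlation of 0.55 with mean normalized count, so the lower fold changes sat at the less abundant genes. Core and cap genes differ in that mean, and the points share the same 6 libraries.

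**Figure D3:**
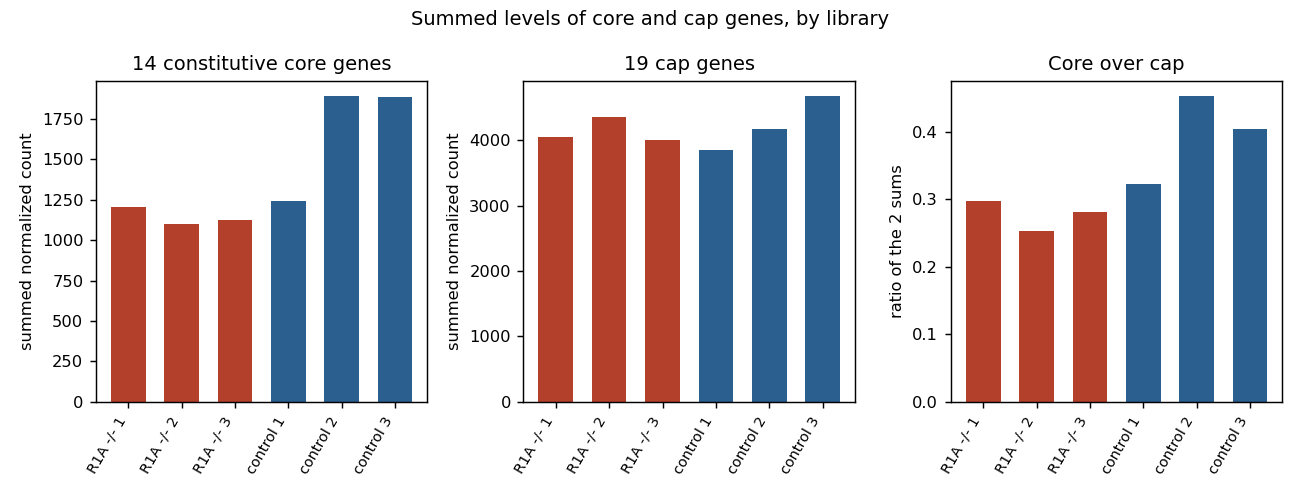
Summed normalized counts of the constitutive core and of the cap, and core counts per cap count, in each library (1 bar a library), with Prrx1(R1A)-/- libraries in red, left of controls in blue. The ratio is 0.253 to 0.298 in Prrx1(R1A)-/- libraries and 0.323 to 0.453 in controls.

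The ATPase ring, which unfolds the substrate, had 3 genes below 0 and 3 above, with a median of -0.07. Psmc4 (chromosome 7, 28041707 to 28050101, minus strand) had 275, 313 and 271 normalized counts in Prrx1(R1A)-/- libraries, against 169.9, 211 and 221 in controls. All 3 Prrx1(R1A)-/- libraries were above all 3 controls, the only member of the 45 for which this was so. Its means were 286 ± 23.4 in Prrx1(R1A)-/- and 201 ± 27.1 in control nuclei (SD, n = 3 each), a log2 fold change of 0.52 ± 0.25 (unadjusted p = 0.0617, adjusted p = 0.441 by limma; 0.40 without control replicate 1). Psmc3, another ATPase of the ring, had 484, 518 and 528 in Prrx1(R1A)-/- libraries, against 489, 333 and 417 in controls. Control 1 lay within the Prrx1(R1A)-/- range, and the fold change was 0.32 ± 0.23 (adjusted p = 0.603 by limma; 0.45 without control replicate 1). Exons of Psmc3 share 215 bases with Slc39a13 on the opposite strand.

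The non-ATPase subunits of the cap, which hold the ubiquitin receptors and the deubiquitinase, had 10 genes below 0 and 3 above among 13 tested. Psmd4, a ubiquitin receptor, had 360.4, 414 and 335 normalized counts in Prrx1(R1A)-/- libraries, against 429, 276 and 389 in controls (log2 fold change 0.04 ± 0.25). Psmd14, the deubiquitinase that cuts ubiquitin off the substrate, had 119, 52.8 and 63.7 in Prrx1(R1A)-/- libraries, against 62.9, 145 and 129.8 in controls (-0.52 ± 0.43, adjusted p = 0.660 by limma). The groups overlapped for both genes, and without control replicate 1 the fold changes were 0.17 for Psmd4 and -0.89 for Psmd14. Psmd11, a structural subunit of the cap, had the highest fold change of the non-ATPase subunits at 0.19 ± 0.25. Psmd5, an assembly factor of the cap named here because its groups did not overlap, had 35.8, 33.6 and 34.4 in Prrx1(R1A)-/- libraries, against 36.5, 84.6 and 82.3 in controls; control 1 was above the highest Prrx1(R1A)-/- library by under 1 normalized count. Its fold change was -0.86 ± 0.45 (adjusted p = 0.471 by limma; -1.25 without control replicate 1).

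The 3 catalytic subunits of the immunoproteasome had the lowest class median, -1.03, with 3 of 3 below 0, and without control replicate 1 the median was -0.78. Psmb8 and Psmb9 lie near each other and near Tap1 on chromosome 17, within the MHC region. Psmb8 is at 34197721 to 34201454, plus strand, and Psmb9 at 34181987 to 34187764, minus strand. Psmb10 lies on chromosome 8 (105935735 to 105938444, minus strand). The regions before the RefSeq starts of the 3 genes are shown because interferon is the best known inducer of these genes. Each holds 250 bases before and 50 after the start (GRCm38.p6, gene strand, 5′ to 3′): chr17:34197945-34198244, plus strand, for Psmb8, chr17:34187281-34187580, minus strand, for Psmb9 and chr8:105938343-105938642, minus strand, for Psmb10. Capitals mark a match, on either strand, to the gamma-activated sequence TTCNNNGAA.
Psmb8: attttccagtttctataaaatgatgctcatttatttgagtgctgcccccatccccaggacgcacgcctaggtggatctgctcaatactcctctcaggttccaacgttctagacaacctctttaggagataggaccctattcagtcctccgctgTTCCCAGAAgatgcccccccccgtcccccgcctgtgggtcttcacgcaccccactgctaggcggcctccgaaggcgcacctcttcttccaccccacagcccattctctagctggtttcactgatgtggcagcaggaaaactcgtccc
Psmb9: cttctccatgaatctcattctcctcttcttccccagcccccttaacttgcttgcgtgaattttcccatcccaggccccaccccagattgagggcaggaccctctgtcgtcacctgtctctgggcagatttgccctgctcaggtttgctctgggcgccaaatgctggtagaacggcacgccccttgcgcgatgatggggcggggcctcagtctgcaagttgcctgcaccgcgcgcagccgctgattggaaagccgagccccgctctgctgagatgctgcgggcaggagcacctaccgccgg
Psmb10: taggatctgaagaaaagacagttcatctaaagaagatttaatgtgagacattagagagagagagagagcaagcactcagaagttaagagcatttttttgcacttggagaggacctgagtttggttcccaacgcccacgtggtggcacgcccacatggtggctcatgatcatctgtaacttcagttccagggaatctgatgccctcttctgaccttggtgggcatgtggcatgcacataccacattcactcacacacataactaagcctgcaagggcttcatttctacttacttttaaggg
Psmb8 held 1 gamma-activated sequence, at 97 to 89 bases before the start; Psmb9 and Psmb10 held none in these windows, and none of the 3 held the interferon-stimulated response element (GAAA, any 2 bases, GAAA). Among all 32851 windows of the same length, 8.30% held the first motif and 3.44% the second, and neither match is evidence of binding. The windows of Psmb8 and Psmb9 lie wholly within the GENCODE gene spans given above. Sequence before those annotated gene starts was therefore not searched, and the lack of a match does not describe it.

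Psmb10 had 117, 132 and 148 normalized counts in Prrx1(R1A)-/- libraries, against 380.0, 259.9 and 199 in controls. The groups did not overlap, and unlike the core genes its highest library was control replicate 1. Its means were 132 ± 15.2 in Prrx1(R1A)-/- and 279.5 ± 92.2 in control nuclei (SD, n = 3 each; log2 fold change -1.03 ± 0.30, SE, unadjusted p = 0.00548, adjusted p = 0.259 by limma). This was the smallest p of the members, and without control replicate 1 the fold change was -0.78. Psmb8 had 86.9, 112 and 167 in Prrx1(R1A)-/- libraries, against 299, 272 and 126 in controls (-0.88 ± 0.38, unadjusted p = 0.0410, adjusted p = 0.398 by limma). Psmb9 had 20.6, 21.6 and 64.7 in Prrx1(R1A)-/- libraries, against 98.1, 151 and 46.0 in controls (-1.49 ± 0.56, unadjusted p = 0.0221, adjusted p = 0.349 by limma). For both, the groups overlapped in the same way: replicate 3 was the highest of the Prrx1(R1A)-/- libraries and replicate 3 the lowest of the controls. Leaving out control 1, their fold changes were -0.65 for Psmb8 and -1.41 for Psmb9. Exons of Psmb8 share 498 bases with Gm20496, and those of Psmb9 share 212 bases with Tap1, on the opposite strand.

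**Figure D4:**
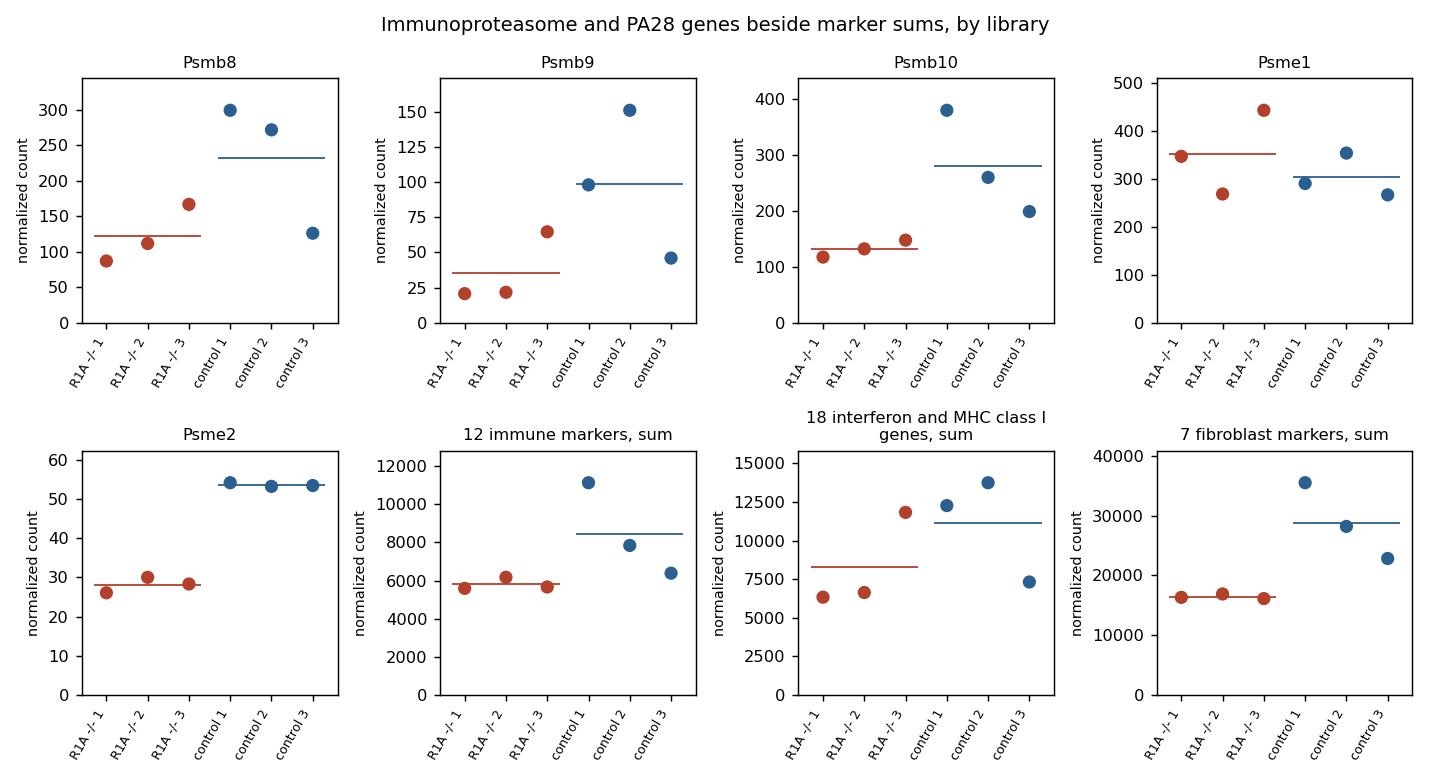
Normalized counts of the immunoproteasome subunits Psmb8, Psmb9 and Psmb10 and of the activator subunits Psme1 and Psme2 in each library, beside the sums over the immune, interferon and MHC class I, and fibroblast lists, with Prrx1(R1A)-/- in red left of control in blue and a line at each group mean. Psmb10 and Psme2 do not overlap between groups, Psmb8 and Psmb9 overlap through replicate 3 of each group, and Psme1 overlaps throughout.

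Tap1 and Nlrc5, picked from the interferon and MHC class I list after their values were seen, were spread over the libraries like Psmb8 and Psmb9. Tap1, the peptide transporter that shares exon bases with Psmb9, had 141, 136 and 516 normalized counts in Prrx1(R1A)-/- libraries, against 428, 396 and 149 in controls. Nlrc5, an activator of MHC class I genes, had 95.5, 197 and 527 in Prrx1(R1A)-/- libraries, against 380.0, 301 and 64.5 in controls. As with Psmb8 and Psmb9, replicate 3 was the highest of the Prrx1(R1A)-/- group and the lowest of the control group for both. The share of the list, or of all genes, with this order is not given here. Where their exons overlap, reads of Tap1 and Psmb9 cannot be told apart. Of the 18 interferon and MHC class I genes tested, 10 had a fold change below 0 and 8 above, with a median of -0.12; without control replicate 1 the median changed sign, to 0.07, with 8 below 0, and leaving out 1 library at a time it ran from -0.57 to 0.07. The smallest p values in each direction were those of H2-K1 (-1.14 ± 0.34, adjusted p = 0.264 by limma) and B2m (-0.96 ± 0.40, adjusted p = 0.381), the chains of a class I molecule, and of Tap2 (0.56 ± 0.33, adjusted p = 0.527) and Ifit1 (0.79 ± 0.48, adjusted p = 0.537). With control replicate 1 left out, H2-K1 was the only gene of the list called, at -1.23 (adjusted p = 0.0380 by limma), and Tap2 was at 0.88. Immune marker genes summed to 5589, 6170 and 5659 normalized counts in Prrx1(R1A)-/- libraries, against 11122, 7837 and 6384 in controls. The part of these markers in the immunoproteasome values was not tested.

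Set against the constitutive subunit that each replaces, the immunoproteasome subunits gave 1 ratio a library. The log2 difference Psmb10 minus Psmb7 was 0.70, 0.67 and 1.07 in Prrx1(R1A)-/- libraries, against 2.76, 1.47 and 0.70 in controls, and Psmb9 minus Psmb6 was -3.12, -2.58 and -0.49, against -0.69, -0.22 and -1.89. Both pairs overlapped between groups. Psmb8 minus Psmb5 was 1.64, 3.58 and 5.06 in Prrx1(R1A)-/- libraries, against 4.61, 3.49 and 2.24 in controls, and also overlapped. Prrx1(R1A)-/- minus control, the means differed by -0.83 for Psmb10 and Psmb7, -1.13 for Psmb9 and Psmb6 and -0.02 for Psmb8 and Psmb5. Leaving control 1 out, these were -0.28, -1.01 and 0.56, and the last ran from -0.83 to 0.87 leaving out 1 library at a time, with Psmb5 at 4 to 35 reads. As a share of all reads on the 6 catalytic genes, the immunoproteasome made up 44.0% (39.6 to 48.6), 54.0% (49.2 to 58.8) and 69.7% (65.7 to 73.4) in Prrx1(R1A)-/- libraries, against 77.5% (74.5 to 80.3), 70.0% (67.5 to 72.5) and 53.6% (50.4 to 56.8) in controls (95% Wilson intervals, covering counting error only). The shares averaged 55.9 ± 12.9% in Prrx1(R1A)-/- and 67.1 ± 12.3% in control nuclei (SD, n = 3 each) and overlapped. The share is of reads, so it also carries transcript length. The share and the ratios also carry the limits given above for these genes. These are the pseudogenes named after Psmb5, Psmb6 and Psmb7, and the opposite-strand overlaps of Psmb7, Psmb8 and Psmb9. The sorted nuclei also held immune marker RNA, so the share cannot be read as that of cardiomyocytes alone.

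Psme1 and Psme2 encode the alpha and beta subunits of PA28, the interferon-inducible activator that opens the core without ATP. The pair, whose genes lie near each other on chromosome 14, was set side by side after the values were seen. Their windows are chr14:55578244-55578543, plus strand, for Psme1 and chr14:55591052-55591351, minus strand, for Psme2; capitals mark a match to that interferon-stimulated response element, here on the reverse strand.
Psme1: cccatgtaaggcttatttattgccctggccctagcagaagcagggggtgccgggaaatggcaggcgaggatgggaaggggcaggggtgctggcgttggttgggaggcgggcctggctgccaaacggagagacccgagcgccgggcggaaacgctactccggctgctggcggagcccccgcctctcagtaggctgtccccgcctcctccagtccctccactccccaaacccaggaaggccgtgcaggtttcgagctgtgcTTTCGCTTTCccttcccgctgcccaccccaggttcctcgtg
Psme2: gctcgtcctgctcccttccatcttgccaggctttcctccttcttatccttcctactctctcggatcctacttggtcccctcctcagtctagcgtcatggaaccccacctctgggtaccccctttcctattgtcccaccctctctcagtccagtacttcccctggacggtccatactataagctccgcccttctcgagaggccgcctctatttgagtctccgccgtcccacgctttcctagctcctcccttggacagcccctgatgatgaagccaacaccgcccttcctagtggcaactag
The match in Psme1 lies 9 to 18 bases after the RefSeq start, and the window of Psme2 held neither interferon motif. The Psme1 window lies wholly within the GENCODE span of that gene, 55578123 to 55581529, so sequence before that span was not searched. Psme1 had 347, 269 and 444 normalized counts in Prrx1(R1A)-/- libraries, against 291, 354 and 267 in controls (log2 fold change 0.20 ± 0.26, adjusted p = 0.801 by limma). Psme2 had 26.1, 30.0 and 28.3 in Prrx1(R1A)-/- libraries, against 54.1, 53.2 and 53.4 in controls (-0.91 ± 0.41, unadjusted p = 0.0490, adjusted p = 0.417 by limma). The Psme2 groups were separated with little spread in either, on 24 to 72 reads a library, and the Psme1 groups overlapped. Without control replicate 1 the fold changes were 0.17 for Psme1 and -0.90 for Psme2; the difference between the 2 genes was not tested.

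The other activators are nuclear proteins. Psme3, PA28 gamma, had 434, 500.3 and 390.1 normalized counts in Prrx1(R1A)-/- libraries, against 250.4, 422 and 435 in controls (0.29 ± 0.27, adjusted p = 0.691 by limma). Psme4, or PA200, was the member with the most reads: it had 1316, 902 and 918 in Prrx1(R1A)-/- libraries, against 653, 1698 and 1528 in controls (-0.21 ± 0.34, adjusted p = 0.838). Control 1 was the lowest library for both, and without it Psme3 was at 0.04 and Psme4 at -0.65 (adjusted p = 0.0548 by limma, the lowest over its alternatives, which ran up to 0.991). Psmf1, an inhibitor of the core known from biochemical assays, had 134, 115 and 39.4 in Prrx1(R1A)-/- libraries, against 83.0, 109 and 121 in controls (-0.28 ± 0.45, adjusted p = 0.844; -0.43 without control replicate 1). Its groups overlapped through Prrx1(R1A)-/- replicate 3.

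The 4 assembly factors Psmg1 to Psmg4, which build the alpha ring in pairs, had fold changes of -0.03 ± 0.43, -0.92 ± 0.63, -0.63 ± 0.53 and -0.23 ± 0.57 in the order Psmg1, Psmg2, Psmg3 and Psmg4, with adjusted p of 0.582 to 0.985 by limma. Psmg2 had 13.0, 13.2 and 13.1 normalized counts in Prrx1(R1A)-/- libraries, against 12.6, 48.7 and 27.4 in controls. Control 1 was again at the Prrx1(R1A)-/- level. Psmg4 had 52.1, 27.6 and 27.3 in Prrx1(R1A)-/- libraries, against 90.6, 24.7 and 28.2 in controls, so its mean difference came from control 1, and without that library its fold change was 0.35. Psmg1 had 55.4, 73.2 and 40.4 in Prrx1(R1A)-/- libraries, against 39.0, 56.9 and 78.6 in controls, and Psmg3 had 28.2, 14.4 and 40.4 against 27.7, 47.2 and 48.9. The groups overlapped for all 4. With control 1 left out, Psmg1 was at -0.28, Psmg2 at -1.41 and Psmg3 at -0.89.

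Genes known from other tissues had few reads. Psma8, the alpha subunit of the testis proteasome, had 15, 1 and 4 reads in Prrx1(R1A)-/- libraries, against 3, 15 and 4 in controls. Psmb11, the catalytic subunit of the thymus, had 1, 0 and 0 reads in Prrx1(R1A)-/- libraries, against 8, 2 and 0 in controls. Psma8 reached 15 reads in 1 library of each group and Psmb11 reached 8 in control replicate 1; other libraries were at 4 reads or fewer. The third gene not tested, Psmd10, an assembly factor of the cap known as gankyrin, had 4.34, 1.20 and 7.07 normalized counts in Prrx1(R1A)-/- libraries, against 5.03, 9.74 and 20.8 in controls. Psmc3ip had 115, 181 and 106 in Prrx1(R1A)-/- libraries, against 46.6, 136 and 142 in controls (0.43 ± 0.44, adjusted p = 0.731 by limma; -0.09 without control replicate 1), and its exons share 385 bases with Mlx on the opposite strand.

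Subunits that assemble in equal number differed widely in nuclear RNA. Per kilobase of the principal transcript, the constitutive core genes ran from 10.7 (Psma2) to 208 (Psma7) normalized counts in Prrx1(R1A)-/- nuclei, a 19.4-fold range, and from 20.2 (Psma3) to 296 (Psma7) in control nuclei, a 14.6-fold range. Psma7 was the highest core gene in both groups. Over all 45 members, the level per kilobase had a median of 76.4 normalized counts in Prrx1(R1A)-/- nuclei and 102 in control nuclei. The lowest in both was Psmd5, an assembly factor of the cap. The length used was that of the longest principal transcript. It was 2911 bases for Psma2 and 2846 for Psma3, against a median of 1162.5 over the constitutive core. For Psmd5 it was 4397, against a median of 1440 over the 45 members. The low values of these 3 genes therefore also carry a long transcript. Whether intron reads were counted is not given in the sources used here, and such reads would not scale with transcript length.

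**Figure D5:**
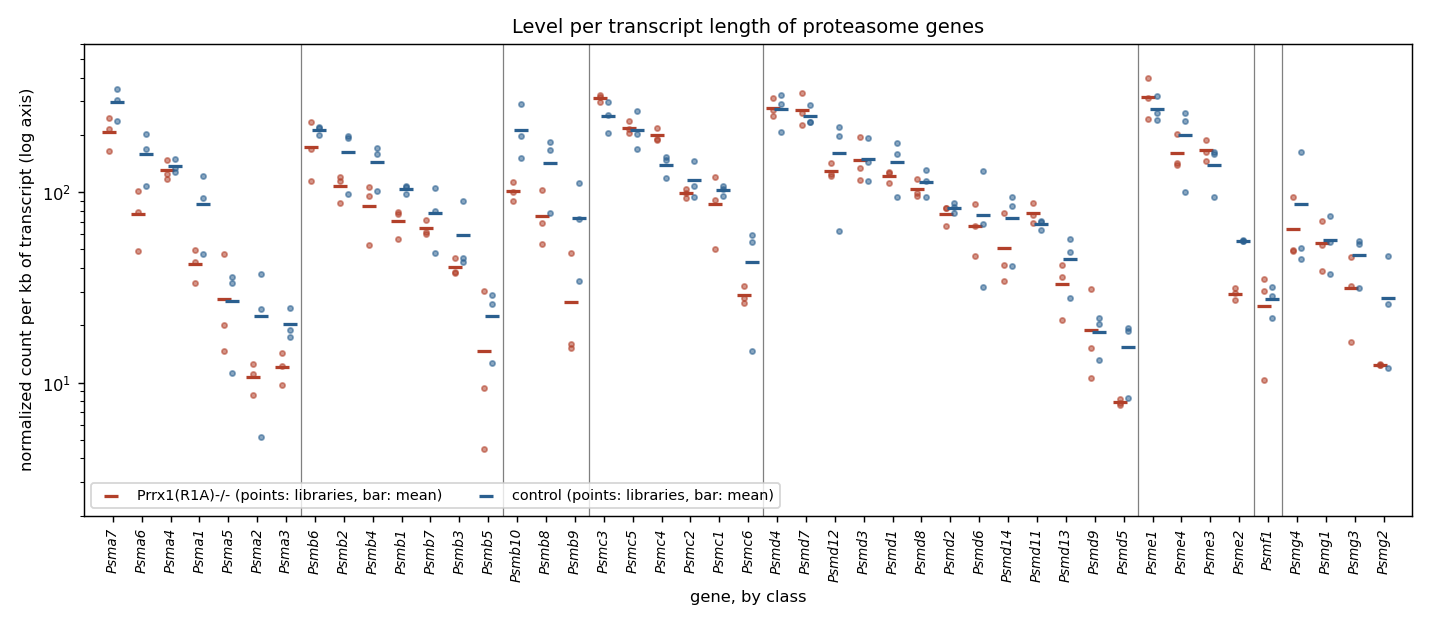
Normalized count per kilobase of the principal transcript for each tested proteasome gene (log axis), by class, with red points for Prrx1(R1A)-/- libraries left of blue points for controls and bars at group means. Subunits of the same ring span more than the distance between the groups for most genes.

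Genes that work with the proteasome, from ubiquitin enzymes to shuttle factors and the factors that control subunit transcription, were counted alongside. Of 39 listed, 33 were tested: 19 had a fold change below 0 and 14 above, with a median of -0.17, and 0 were called by limma (0 by edgeR or DESeq2). At an unadjusted p under 0.05, 2 were lower, against 5.25% of all genes, and 1 was higher, against 6.67%. Ngly1, the deglycosylase that activates Nfe2l1, had 61.9, 48.0 and 72.8 normalized counts in Prrx1(R1A)-/- libraries, against 73.0, 164 and 147 in controls (-1.0 ± 0.39, unadjusted p = 0.0269, adjusted p = 0.363 by limma). Pomp, the chaperone that matures the core, had 104, 93.6 and 238 in Prrx1(R1A)-/- libraries, against 211, 257 and 245 in controls (-0.84 ± 0.36, unadjusted p = 0.0389, adjusted p = 0.392). The Pomp groups overlapped through Prrx1(R1A)-/- replicate 3, and the Ngly1 groups nearly touched at control 1. Nfe2l1, the transcription factor known to raise proteasome genes when the proteasome is impaired, had 2016, 2229 and 1984 in Prrx1(R1A)-/- libraries, against 2129, 1275 and 1615 in controls (0.34 ± 0.23, adjusted p = 0.573; 0.53 without control replicate 1). Shfm1, the small cap subunit now named Sem1, was at -0.81 ± 0.41, and the shuttle factor Ubqln4 was at 0.57 ± 0.26 (adjusted p = 0.417 by limma). Without control replicate 1, limma called 5 of the 32 then tested: Ngly1 and Uba6 were lower in Prrx1(R1A)-/- nuclei, against 3.06% of all genes, and Ddi2, Ubxn1 and Bag6 were higher, against 6.1%. The median of the list was then -0.27.

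Promoter windows were found for 41 of the 49 members. The interferon-stimulated response element was in 5 of them (Psmb3, Psmd4, Psmd9, Psme1 and Psmg4), against 3.99% of all genes with a window, and the gamma-activated sequence in 3 (Psmb8, Psmd2 and Psmg1), against 9.55%. The antioxidant response element TGACNNNGC was in 6, against 14% of all genes with a window, and the CCAAT box (CCAAT) in 15, against 41.1%, of which 6 were among the 11 constitutive core genes with a window. Both strands were searched, no motif contains another, and a match is a description of letters, not a site.

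In the authors' deposited table of 1900 genes, 7 members were listed: Psmb10, Psma6, Psmb9, Psmb8, Psma1, Psmb4 and Psmd5. In the authors' deposited table all 7 had a negative log2 fold change, from -0.62 (Psmb4) to -0.96 (Psmb9), and 0 had an adjusted p under 0.05, against 227 genes of that table. All 7 had a small unadjusted p there, from 0.00152 (Psmb10) to 0.0495 (Psmd5) by DESeq2. That table holds selected genes of the same 6 libraries, so neither the shared sign nor the small p values are separate evidence. If its genes were selected by p, a small p was a condition of being listed. The share of its genes below 0 is not given here. The smallest adjusted p of a member in the authors' deposited table was 0.0675, for Psmb10.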

How the data were processed

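Nuclear RNA of 6 mouse atrial libraries was compared, 3 Prrx1(R1A)-/- against 3 control. STAR and DESeq2 with build mm10 are named in the submitters' processing notes; no source used here names the feature counted or the annotation. The deposited signal values are normalized counts, per the file headers; each is a whole number of reads times 1 step per library within 0.01 reads, apart from 1 value (Prrx1 in control replicate 3), so reads were recovered. The authors' deposited table of selected genes also holds a base mean (signal), log2 fold changes with standard errors, a Wald score, p-values and -log10 of the adjusted p, per the file headers. Rows without a value (847) were left out.

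Genes with at least 10 normalized counts in at least 3 libraries (14584) were fitted with limma 3.58.1 (R 4.3.3) as log2(value + 1), intensity trend, genotype as the single term. Recovered reads tested with edgeR 4.0.16 or DESeq2 1.42.0, other scalings, filters and pseudocounts, library weights and leaving out each library were alternatives. The limma, edgeR and DESeq2 comparisons of all 6 libraries were tested on simulated counts. The other alternatives were not. In that order, the tools recovered 15.2, 14.1 and 24.2% of 2-fold changes and 79.6, 82.7 and 87.8% of 4-fold changes. They called 2, 3 and 18 unchanged genes. Names, positions and transcript lengths came from GENCODE M21 (GRCm38), promoter windows from RefSeq (GRCm38.p6). The members and the gene lists were chosen with earlier results of these data known. Named members were the catalytic, tissue-restricted, activator, inhibitor and assembly genes, Psmd4, Psmd14, and the 5 with the smallest p in each direction; others were named after their values were seen. Of the pathway list, 1 gene the naming rule covers is not reported here. The labels do not say that replicate numbers pair the samples, so none were paired in the main fit.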

Additional observations from a re-analysis of the deposited data

How the results depend on the processing

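Genes called over all 14584 numbered 2 by limma. They numbered 0 with quantile scaling, with edgeR and with a replicate block, 244 with DESeq2, 1521 with quality weights, 51 at an adjusted p under 0.10, and 0 to 1312 leaving out 1 library; these counts do not say which genes. Proteasome genes called numbered 0, with 3 under quality weights and 0 to 2 leaving out 1 library, and pathway genes 0, with 5 and 0 to 5. Proteasome genes lower at an unadjusted p under 0.05 numbered 6, with 18 under weights and 1 to 15 leaving out 1 library. The ATPase median ran from -0.15 to 0.093 leaving out 1 library, and the assembly factor median was -0.030 with a filter at 50 normalized counts, where 1 gene was left. The labels give no pairing of samples. Deviations of same-numbered libraries from their group means had correlations of -0.11, -0.02 and -0.09, which cannot settle whether animals were paired. The replicate block called 0 members. Of 23 named members, 16 kept their sign in every one of the 17 alternatives that gave them a value (Psmb5, Psmg2 and Psmg3 had 16); Psmb7, Psme4, Psmf1, Psmg1, Psmg4, Psmd4 and Psmc3ip did not. Low depth limits what can be said of Psmb5, with 4 to 35 reads. The causes were not tested.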
